A study of Mus musculus with 49 samples.

Results

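The genes described here encode the proteins of the cytosolic ribosome. They were chosen by symbol alone, as mouse genes named Rpl or Rps with a number, Rplp with a number, or Rpsa, after symbols ending in -ps and a number and the Rps6k kinases had been left out and a minimum of 10 counts in at least 2 libraries had been applied. This gave 82 of the 24062 genes in the count table. Of the 82, 42 are proteins of the large subunit, 31 of the small subunit and 3 of the stalk (Rplp0, Rplp1 and Rplp2), and these 76 are called core genes below. The other 6 carry the name without being core parts: 5 paralogs (Rpl7l1, Rpl22l1, Rpl36al, Rps4l and Rps27l) and Rps19bp1, whose product binds a ribosomal protein. Of these, Rps4l is annotated as a transcribed pseudogene and not as protein-coding. All 82 passed the filter of the test, and all 82 were matched by symbol to RefSeq. Of 87 matching symbols, 5 fell under the minimum: Rps27rt, Rpl10l, Rpl39l, Rpl3l and the core gene Rpl26, which was listed at 0 in every library.

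The study sequenced RNA from crypt epithelium of the proximal mouse small intestine, on a mixed B6;129 background, in 25 libraries of 12 groups. Crypts were freed with EDTA and either sorted into cell types or taken whole. Bmi1-GFP cells were GFP-positive cells of Bmi-1GFP/+ mice, untreated (3 libraries) or collected 36 h after a whole-body dose of 10 Gy (1 library). Lgr5-positive stem cells were sorted as bright GFP cells of Lgr5EGFP-IRES-CRE-ERT2 mice (Lgr5-GFP-Cre, 3 libraries) or as GFP-positive cells of Lgr5EGFP-DTR mice, which carry the diphtheria toxin receptor (Lgr5-GFP-DTR, 2 libraries), both untreated. These sorts used TrypLE. Enteroendocrine cells (CD24-high, without UEA lectin) and Paneth cells (CD24-high, UEA lectin-high) came from untreated wild-type mice after Dispase, with 2 libraries each. CD274+CD69+ cells, also after Dispase, came from mice labelled wild type, either untreated (2 libraries) or given 4 injections of diphtheria toxin at 50 µg/kg (DT-treated, 2 libraries). Goblet cells (2 libraries), by their labels sorted as CD274+CD69+ cells after Dispase, came from wild-type mice killed 115 h after the first of 2 injections of 48 mg/kg DBZ, a Notch pathway inhibitor. There were 3 kinds of unsorted crypts, each with 2 libraries. Enterocyte progenitors were Atoh1 F/F; Villin-CRE crypts 3 weeks after 5 daily doses of 1 mg tamoxifen, which leaves the epithelium without the secretory-fate factor Atoh1. Secretory progenitors DBZ were Atoh1 F/F crypts collected 38 h after the first of 2 DBZ injections of 48 mg/kg. Secretory progenitors Rbpj were Rbpj F/F; Villin-CRE crypts, which lose the DNA-binding partner of Notch, collected on day 3 after 2 mg tamoxifen given for 2 days, with 2 doses a day. The labels give no ages, and call the replicates biological without saying which share a mouse, litter or day, so p-values below measure only the spread between these samples.

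Each ribosome is built from ribosomal RNA and one copy of most of these proteins, so the genes are transcribed at broadly matched rates and their messages are among the most abundant of a growing cell. In mammals most of these messages begin with a short run of pyrimidines at the 5′ end, the TOP motif, through which mTOR and LARP1 set how well they are translated. In the crypt, dividing stem and progenitor cells need many new ribosomes. Free Rpl5 and Rpl11 also bind Mdm2 and stabilise p53 when assembly of the ribosome is disturbed.

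Start sites were searched for such a run. Of the 82 genes, 61 have a promoter window in the RefSeq table (build GRCm38.p6). A pyrimidine run that began with C within 3 bases of the start, followed by at least 4 more C or T, was found at 25 of these 61 (41%), against 13.5% of 27025 genes in the table. Of the core genes, 23 of 56 with a window had one. The windows below set core genes beside paralogs. Rps6, Rplp2 and Rpl15 were chosen as core genes that have a run, and Rpl22 as the parent gene of Rpl22l1. Each window gives 30 bases before the start and 20 from it, on the gene's own strand. Capitals mark the run from its first C within 3 bases of the start, so pyrimidines before that C, as in Rplp2 and Rpl15, are left in lower case.
Rps6, chr4:86857348-86857397, minus strand: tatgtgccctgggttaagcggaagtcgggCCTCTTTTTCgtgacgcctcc
Rplp2, chr7:141447621-141447670, plus strand: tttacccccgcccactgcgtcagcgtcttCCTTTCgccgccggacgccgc
Rpl15, chr14:18270967-18271016, minus strand: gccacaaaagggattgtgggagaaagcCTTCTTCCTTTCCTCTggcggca
Rps27l, chr9:66946056-66946105, plus strand: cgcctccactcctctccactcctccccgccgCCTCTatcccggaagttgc
Rps27l (other start), chr9:66946383-66946432, plus strand: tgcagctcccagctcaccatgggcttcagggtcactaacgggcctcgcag
Rpl22, chr4:152324406-152324455, plus strand: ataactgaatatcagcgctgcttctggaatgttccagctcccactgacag
Rpl22 (other start), chr4:152325696-152325745, plus strand: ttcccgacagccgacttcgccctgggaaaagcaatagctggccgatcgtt
Rpl22l1, chr3:28805478-28805527, plus strand: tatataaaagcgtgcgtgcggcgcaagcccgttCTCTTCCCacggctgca
Rpl7l1, chr17:46782637-46782686, minus strand: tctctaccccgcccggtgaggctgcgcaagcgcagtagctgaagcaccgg
By this rule the runs of Rps6, Rplp2 and Rpl15 start just before the first transcribed base, and those of Rps27l and Rpl22l1 just after it. No run was found in the window of Rpl7l1, in either window of Rpl22 or at the other start of Rps27l. In the full windows of 300 bases, searched on both strands, the letters CCGGAAG, an ETS-family motif, were in 24 of the 61 (39.3%) against 9.93% of all genes. AAGATGGC, a YY1 motif, was in 6 (9.84% against 3.19%) while TATAAA was in 7 (11.5% against 15.7%). These are matches of letters, not measured sites.

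Libraries held 11179085 to 27371108 counts. Defining markers were high in the matching sorts. The stem cell markers summed to 5065 to 6827 CPM in Lgr5-GFP-Cre, the goblet markers to 44752 and 78411 CPM in Goblet and the enteroendocrine markers to 9374 and 4931 CPM in enteroendocrine libraries (CPM are counts scaled to a library total of 1000000 after trimmed mean of M-values, or TMM, adjustment). The Paneth markers (Lyz1, Defa24, Mmp7 and Itln1) summed to 306149 and 183069 CPM in Paneth libraries, but also to 38343 to 46490 CPM in Lgr5-GFP-Cre and to 211560 and 153891 CPM in Lgr5-GFP-DTR. Atoh1 was at 1.56 and 1.81 CPM in enterocyte progenitors against 17.8 to 140.5 elsewhere. Rbpj was at 22.5 and 29.3 CPM in the Rbpj F/F; Villin-CRE crypts, inside the range of the other libraries (11.8 to 45.4). Which exons were removed was not stated in the labels, so counts over the whole gene do not check that deletion. In bulk RNA, fewer cells of a type and less RNA per cell cannot be told apart.

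Some libraries stood apart before any comparison. By their labels the Rbpj libraries and the first CD274+CD69+ control library were made with TruSeq and the other 22 with SMART-Seq v4. Over the 73 core genes above the lowest levels, the correlation of log2 levels across genes (a description; genes are not independent) was 0.823 to 0.999 among the 20 replicated libraries other than Goblet and Rbpj. Goblet libraries reached 0.508 to 0.748 with those 20 but 0.803 to 0.826 with Rbpj libraries, and Rbpj libraries reached 0.570 to 0.794 with the 20. The first CD274+CD69+ control library, labelled TruSeq, correlated at 0.999 with the second, labelled SMART-Seq v4, and at 0.676 to 0.701 with Rbpj. The Goblet profile therefore lay nearest that of libraries labelled with the other kit, and results with Goblet or Rbpj are given last. The first and second CD274+CD69+ control libraries differed by more than sampling noise, with a median squared difference 2.40 times that expected from counting (6.07 to 44.9 in other replicate pairs), and were counted as 2. Of the core genes, Rpl30, Rpl34 and Rps27 stayed below 8 CPM in every library, beside Rpl26 at 0. Many ribosomal protein genes have near-identical processed copies, and the labels do not say how reads matching several copies were counted, so values of these 4 genes and of the paralogs are uncertain.

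The summed share of the 82 genes in all counts ranged from 0.700 to 7.08% of a library. The highest shares were 7.08, 3.39 and 4.97% in the Lgr5-GFP-Cre libraries, 6.88 and 6.27% in Rbpj secretory progenitors, 5.70 and 4.27% in enteroendocrine cells and 4.46 and 3.94% in Lgr5-GFP-DTR. In the middle lay DBZ secretory progenitors at 2.91 and 2.97%, Bmi1-GFP cells at 2.60, 3.09 and 2.77%, enterocyte progenitors at 2.19 and 3.10% and DT-treated CD274+CD69+ cells at 2.46 and 2.01%. Lowest by share were the CD274+CD69+ controls at 1.96 and 1.84%, Paneth cells at 1.78 and 1.93%, Goblet cells at 1.19 and 1.04% and the irradiated Bmi1-GFP library at 0.700%. By share, stem cells, enteroendocrine cells and Rbpj crypts lay above every other group, with no overlap, but not apart from each other. The Lgr5-GFP-Cre libraries spread over a 2.09-fold range that takes in all of enteroendocrine, Lgr5-GFP-DTR and Rbpj. The order differs in CPM, since shares are lowered where a few genes take many counts. The median log2 CPM of the members was 8.11 and 7.97 in Paneth cells and 7.89, 8.06 and 8.01 in Bmi1-GFP. It was 7.68 and 7.51 in CD274+CD69+ controls, and 8.08 in the second Lgr5-GFP-Cre library, below the first Paneth library. Of the 76 core genes, 42 had their highest group mean in Rbpj crypts, 16 in Lgr5-GFP-DTR, 13 in enteroendocrine cells and 5 in Lgr5-GFP-Cre. These counts were not taken over all genes.

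**Figure D1:**
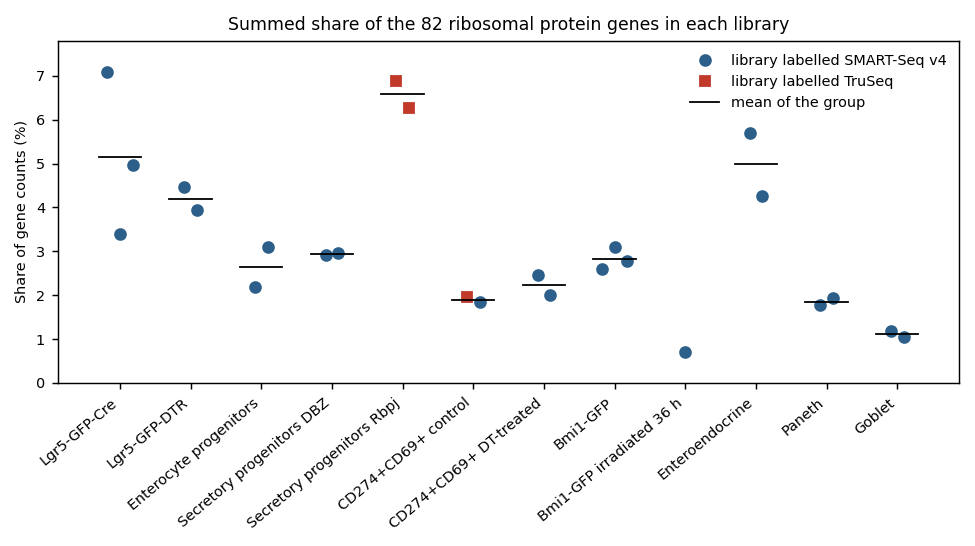
Share of all gene counts taken by the 82 ribosomal protein genes (y axis, %), 1 point per library, by group (x axis); squares mark libraries labelled TruSeq and lines the group means. The Lgr5-GFP-Cre libraries spread from 3.39 to 7.08%, and the irradiated Bmi1-GFP library is lowest at 0.700%.

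Bmi1-GFP cells had lower ribosomal protein transcripts than Lgr5-positive stem cells. Of the 82 genes, 0 were called higher and 76 lower, where a call is an adjusted p below 0.05 in edgeR's quasi-likelihood test over all 14837 genes tested, of which 27.9% were called higher and 22.5% lower. The median of the 82 was a log2 fold change of -1.03, a 2.04-fold lower level, against 0.09 over all genes. By part of the ribosome, 40 of 42 large subunit genes, 29 of 31 small subunit genes and all 3 stalk genes were called lower. Rplp0, the scaffold of the stalk that recruits elongation factors, was at 924, 999 and 1003 CPM in Bmi1-GFP and 3152, 1753 and 2152 CPM in Lgr5-GFP-Cre. Every Bmi1-GFP library was below every stem cell library for this gene, with a log2 fold change of -1.27 (SE 0.21, adjusted p = 0.000127 in edgeR). Rps3, a small subunit protein at the mRNA entry channel, was at 472, 492 and 504 against 1755, 781 and 1168 CPM, again without overlap, with a log2 fold change of -1.34 (SE 0.22, adjusted p = 0.000107 in edgeR). Rps6, the S6 kinase substrate, was at 472, 559 and 533 against 1358, 629 and 982 CPM, with a log2 fold change of -0.93 (SE 0.22, adjusted p = 0.00199 in edgeR). The 6 genes not called included Rpl5, one of the Mdm2-binding proteins, whose levels of 365, 435 and 430.4 CPM overlapped the 697, 372 and 559 CPM of stem cells, with a log2 fold change of -0.40 (SE 0.22, adjusted p = 0.133 in edgeR). Groups did not overlap for 43 of the 82, against 25.2% of all genes lower in that way. The count rests partly on the first Lgr5-GFP-Cre library: without it 37 were called, with a median of -0.60.

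A second fit asked whether single members moved differently from the set, with the summed counts of the 82 genes in place of the usual library size. On this relative scale 3 of the 82 rose and 0 fell between Lgr5-GFP-Cre and Bmi1-GFP (of all genes, 50.5% rose and 1.65% fell, since the scale follows the set). Rpl5 rose by 0.61 on the log2 scale (SE 0.19, adjusted p = 0.0117 in edgeR). Rpl36al, a paralog of the large subunit gene Rpl36a, rose by 0.74 on the log2 scale (SE 0.19, adjusted p = 0.00421 in edgeR). Rplp0, with -0.26 on the log2 scale (SE 0.18, adjusted p = 0.251 in edgeR), was not called on that scale. Genes of related work were lower too on the usual scale, where 22.5% of all genes were called lower and 27.9% higher. Each list is given by its counts. In Bmi1-GFP 57 of 77 mitochondrial ribosomal protein genes were called lower and 0 higher. Of the ribosome biogenesis genes 46 of 59 were lower and 0 higher, and of the translation factor genes 29 of 44 lower and 4 higher. Polr1c, a subunit of RNA polymerases I and III, had a log2 fold change of -1.42 (SE 0.16, adjusted p = 3.87e-06 in edgeR). Of 22 genes that control growth through Myc, mTOR or p53, 8 were lower and 5 higher. Myc, a driver of ribosome synthesis, had a log2 fold change of -2.11 (SE 0.27, adjusted p = 1.08e-05 in edgeR). Eif4a2, an initiation helicase, was among the 4 higher, with a log2 fold change of 0.71 (SE 0.19, adjusted p = 0.00588 in edgeR). Lymphocyte markers summed to 858 to 2129 CPM in Bmi1-GFP and 20.5 to 37.5 CPM in Lgr5-GFP-Cre, and enteroendocrine markers to 4027 to 7974 against 186 to 198 CPM. Their part in the result was not tested.

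In mature enteroendocrine cells few members were called against stem cells. Of the set, 2 were called higher and 4 lower in enteroendocrine cells than in Lgr5-GFP-Cre, against 25.5% and 20.4% of all genes, and the median log2 fold change was 0.08. The 2 higher were small subunit genes. Rps12 was at 761 and 434 CPM in enteroendocrine cells and 438, 127 and 248 CPM in stem cells, with a log2 fold change of 1.14 (SE 0.35, adjusted p = 0.0127 in edgeR). Rps24, mutated in some cases of Diamond-Blackfan anaemia, was at 827 and 531 against 543, 156 and 333 CPM, with a log2 fold change of 0.98 (SE 0.34, adjusted p = 0.024 in edgeR). For both genes the second enteroendocrine library lay inside the stem cell range. The 4 lower were Rpl7l1, Rps3, Rpl4 and Rps2. Rpl7l1, a paralog of Rpl7 that works in assembly of the large subunit, was at 83.7 and 81.1 CPM against 299, 193 and 221 CPM, the lowest stem cell library being above both, with a log2 fold change of -1.53 (SE 0.18, adjusted p = 6.61e-06 in edgeR). On the relative scale 13 genes rose (15.9% of all genes) and 4 fell (12.4%), while the summed share stayed in the stem cell range. Paneth markers summed to 55379 and 45831 CPM in the enteroendocrine libraries. Tuft markers summed to 453 and 2391 CPM there, against 5.37 to 9.65 CPM in Lgr5-GFP-Cre. Proliferation markers were at 356 and 352 CPM against 629.5 to 679 CPM. The part of these marker lists was not tested. The count depended on single libraries: 31 were higher and 1 lower without the first Lgr5-GFP-Cre library, 1 higher and 15 lower without the second, and 4 higher and 1 lower without the second enteroendocrine library. Genes of ribosome assembly were lower: in enteroendocrine cells 36 of 59 biogenesis genes were called lower and 2 higher than in stem cells, and 30 of 77 mitochondrial ribosomal protein genes lower and 0 higher. Myc had a log2 fold change of -2.42 (SE 0.32, adjusted p = 1.51e-05 in edgeR).

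Bmi1-GFP cells were below enteroendocrine cells, although both express endocrine markers. Here 67 of the 82 were called lower and 0 higher (12.1% and 12.6% of all genes), with a median of -1.12. In 78 of the 82 every Bmi1-GFP library was below both enteroendocrine libraries, against 29.3% of all genes. Rplp1, the partner of Rplp2 in the stalk, was at 284, 324 and 314 CPM in Bmi1-GFP and 1133 and 693 CPM in enteroendocrine cells, with a log2 fold change of -1.57 (SE 0.33, adjusted p = 0.00312 in edgeR). Rpl37a, a small zinc-finger protein of the large subunit, was at 254, 336 and 279 against 1394 and 889.8 CPM, with a log2 fold change of -1.98 (SE 0.36, adjusted p = 0.00124 in edgeR). Rpl7l1 stood against the rest, at 97.6, 121 and 103 CPM in Bmi1-GFP and 83.7 and 81.1 CPM in enteroendocrine cells. Its difference was a log2 fold change of 0.38 (SE 0.18, adjusted p = 0.12 in edgeR) on the usual scale, and 1.39 on the log2 scale (SE 0.25, adjusted p = 0.00119 in edgeR) relative to the set, where 5 rose (46.3% of all genes) and 10 fell (2.06%). Among the biogenesis genes, by contrast, 6 of 59 were lower and 5 higher. Without the first enteroendocrine library 6 members were called, with a median of -0.86, and 44 without the first Bmi1-GFP library, with a median of -0.97. Lymphocyte markers summed to 858 to 2129 CPM in Bmi1-GFP and to 190 and 140 CPM in enteroendocrine libraries. Paneth markers summed to 6231 to 9449 against 55379 and 45831 CPM, and tuft markers to 137 to 322 against 453 and 2391 CPM. The part of these marker lists was not tested. Dissociation (TrypLE or Dispase) and genotype (Bmi-1GFP/+ or wild type) differed between these groups. Their parts and that of the cell type cannot be told apart. Dissociation and genotype also differed, with the same limit, in each comparison of enteroendocrine, Paneth or CD274+CD69+ cells with Lgr5-GFP-Cre.

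Paneth cells, the long-lived granular cells of the crypt base, had lower levels than both stem and enteroendocrine cells. Against Lgr5-GFP-Cre, 65 of the 82 were called lower and 0 higher (19.1% and 21.6% of all genes), with a median of -1.04. Against enteroendocrine cells, 64 were lower and 0 higher (15.4% and 14% of all genes), with a median of -1.13, and for 81 of the 82 the groups did not overlap, against 33.8% of all genes. Rpsa, which is also the laminin receptor precursor, was at 521 and 355 CPM in Paneth cells, 1954, 1061 and 1300 CPM in Lgr5-GFP-Cre and 1231 and 768 CPM in enteroendocrine cells. It fell against stem cells with a log2 fold change of -1.72 (SE 0.28, adjusted p = 0.000108 in edgeR), and was the 1 gene that also fell relative to the set, with a value of -0.69 on the log2 scale (SE 0.22, adjusted p = 0.0181 in edgeR). Of all genes 0.937% fell on that scale and 40.7% rose, and 3 members rose. Rps27l was among the 3, rising by 0.91 on the log2 scale (SE 0.23, adjusted p = 0.00486 in edgeR), while its level of 359 and 299.9 CPM lay inside the 675, 147 and 397 CPM of stem cells. Of the Mdm2-binding pair, Rpl5 had a log2 fold change of -0.75 (SE 0.25, adjusted p = 0.024 in edgeR). Rpl11 had a log2 fold change of -1.08 (SE 0.30, adjusted p = 0.00706 in edgeR). A few secretory genes take much of a Paneth library: the 10 most abundant genes took 39.7 and 24.4% of counts there against 8.85 to 10.1% in Lgr5-GFP-Cre, and the TMM factors of 0.700 and 0.875 allow for this in CPM but not in the share of counts. Against stem cells 34 genes were called without the first Lgr5-GFP-Cre library, 42 without the first Paneth library and 30 without the second. Against enteroendocrine cells 2 were called without the first enteroendocrine library, 35 without the first Paneth library and 7 without the second. Fitted with the compared groups alone, the counts were 17 and 22. The medians under these removals stayed between -1.36 and -0.61 against stem cells and between -1.37 and -0.84 against enteroendocrine cells.

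CD274+CD69+ control cells, sorted on surface proteins that the study uses for secretory precursors, had the largest count against stem cells. The calls were 78 of the 82 lower and 0 higher (21.3% and 24% of all genes), with a median of -1.43, a 2.69-fold lower level. The groups did not overlap for 74 of the 82, against 31.5% of all genes. Rplp1 was at 183 and 158 CPM against 1099, 348 and 604 CPM, with a log2 fold change of -2.004 (SE 0.36, adjusted p = 0.000242 in edgeR). Rps14, a small subunit protein at the decoding platform, was at 352 and 321 against 1993, 640.3 and 1081 CPM, with a log2 fold change of -1.88 (SE 0.36, adjusted p = 0.000437 in edgeR). Rpl5 was called lower here, with a log2 fold change of -0.93 (SE 0.25, adjusted p = 0.00595 in edgeR). Relative to the set 5 genes rose (55.6% of all genes) and 1 fell (1.23%), the latter being Rplp1. Rpl7l1 was among the 5, rising by 0.61 on the log2 scale (SE 0.23, adjusted p = 0.0333 in edgeR). Rps27l was another, rising by 0.68 on the log2 scale (SE 0.23, adjusted p = 0.0199 in edgeR). Of the related lists, 66 of 77 mitochondrial ribosomal protein genes, 33 of 59 biogenesis genes and 24 of 44 translation factor genes were called lower, and 0, 4 and 3 higher. Eif4g2, an initiation factor of cap-independent translation, was among the 3, with a log2 fold change of 1.24 (SE 0.16, adjusted p = 8.28e-06 in edgeR). Leaving out single libraries gave 61 to 79 calls. Marker sums differed as well: goblet markers summed to 7645 and 8671 CPM in CD274+CD69+ controls against 1019 to 1627 CPM in Lgr5-GFP-Cre, and enterocyte markers to 6388 and 6375 against 1814 to 2590 CPM. Paneth markers summed to 12421 and 14995 against 38343 to 46490 CPM, and proliferation markers to 506 and 476 against 629.5 to 679 CPM. Their part was not tested.

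After diphtheria toxin no member was called in these libraries. DT-treated CD274+CD69+ cells had 0 of 82 genes called against untreated ones by edgeR (0.0741% of all genes higher and 0.101% lower), with 1 at an unadjusted p below 0.05. The median log2 fold change was 0.18, against 0.02 over all genes, and 76 of the 82 lay above 0. Few genes of any kind were called, so 0 calls cannot exclude a small shift of the set. Rplp0 was at 984 and 839 CPM after toxin and 769 and 699 CPM without, with a log2 fold change of 0.31 (SE 0.26, adjusted p = 1 in edgeR). The 1 gene at an unadjusted p below 0.05 was Rps4l, a paralog of Rps4x annotated as a transcribed pseudogene. It was at 5.89 and 17.3 CPM after toxin and 42.8 and 40.3 CPM without. Both toxin libraries were below both controls, with a log2 fold change of -1.85 (SE 0.43, adjusted p = 0.118 in edgeR). DESeq2, edgeR without the count filter, and edgeR without the second DT-treated library each called it lower. The labels call these mice wild type, and whether they carried a toxin receptor is not stated there. Rps4x, the core gene, was at 297 and 252 against 249 and 225 CPM, and was not called.

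Between the 2 sources of Lgr5-positive cells no member was called either. Lgr5-GFP-DTR against Lgr5-GFP-Cre gave 0 of 82 in edgeR and in DESeq2 and 0 at an unadjusted p below 0.05 (9.49% of all genes higher and 11.1% lower), with a median of 0.09. Rpl3, a protein at the peptidyl transferase centre, was at 1343 and 1099 CPM in Lgr5-GFP-DTR and 1716, 1134 and 1327 CPM in Lgr5-GFP-Cre, with a log2 fold change of -0.19 (SE 0.19, adjusted p = 0.519 in edgeR). For 76 of the 82 genes both Lgr5-GFP-DTR libraries lay inside the range of the 3 Lgr5-GFP-Cre libraries. That range is wide, with summed shares of 3.39 to 7.08%, and the same count was not taken over all genes. Without the first Lgr5-GFP-Cre library, 5 genes were called higher in Lgr5-GFP-DTR, with a median of 0.52. With this spread, 0 calls cannot exclude a shift of the set. Paneth markers summed to 211560 and 153891 CPM in Lgr5-GFP-DTR against 38343 to 46490 CPM in Lgr5-GFP-Cre. Tuft markers were at 645 and 941 against 5.37 to 9.65 CPM, and stem cell markers at 3446 and 3548 against 5065 to 6827 CPM. Their part was not tested.

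Both kinds of progenitor crypt had lower levels than sorted stem cells. In enterocyte progenitors 75 of the 82 were called lower and 0 higher (17.2% and 22.2% of all genes), with a median of -1.19, and in DBZ secretory progenitors 56 lower and 0 higher (15.7% and 21%), with a median of -0.89. The groups did not overlap for 41 genes in enterocyte progenitors and 35 in DBZ secretory progenitors, against 26.9% and 25.2% of all genes. Rps19, the small subunit gene most often mutated in Diamond-Blackfan anaemia, was at 336 and 489 CPM in enterocyte progenitors, 443 and 420.4 CPM in DBZ secretory progenitors and 1676, 635 and 1102 CPM in Lgr5-GFP-Cre. Both progenitor groups were below every stem cell library. The fall in enterocyte progenitors had a log2 fold change of -1.46 (SE 0.30, adjusted p = 0.00095 in edgeR), and that in DBZ secretory progenitors had a log2 fold change of -1.40 (SE 0.30, adjusted p = 0.00139 in edgeR). Rpl5 overlapped stem cells in both groups, at 340.2 and 482 CPM and 487 and 535 CPM, and it rose relative to the set by 0.69 on the log2 scale (SE 0.21, adjusted p = 0.0108 in edgeR), in enterocyte progenitors, and by 0.77 on the log2 scale (SE 0.21, adjusted p = 0.00783 in edgeR), in DBZ secretory progenitors. Rpl36al did likewise, by 0.60 on the log2 scale (SE 0.21, adjusted p = 0.0248 in edgeR), and 1.01 on the log2 scale (SE 0.21, adjusted p = 0.00152 in edgeR). On that scale 3 and 2 genes rose (49% and 35.4% of all genes) and 0 fell in either (2.86% and 2.33%). Biogenesis genes were split in enterocyte progenitors, with 16 of 59 lower and 6 higher. Heatr1, which acts in processing of the pre-ribosomal RNA, was higher with a log2 fold change of 1.53 (SE 0.22, adjusted p = 3.85e-05 in edgeR), while Polr1c was lower with a log2 fold change of -1.13 (SE 0.18, adjusted p = 0.000138 in edgeR). Without the first Lgr5-GFP-Cre library 47 members were called in enterocyte progenitors and 15 in DBZ secretory progenitors, and without the first enterocyte progenitor library 15. Without either DBZ library the count was 14, as it was with only the compared groups in the fit (30 for enterocyte progenitors). These crypts were unsorted, while the stem cells were sorted after TrypLE. Genotype and treatment (tamoxifen or DBZ against none) differed too, so none of these can be told apart from cell state. Paneth markers summed to 51.9 and 115 CPM in enterocyte progenitors against 38343 to 46490 CPM in Lgr5-GFP-Cre, tuft markers to 848 and 406 against 5.37 to 9.65 CPM and lymphocyte markers to 277 and 205 against 20.5 to 37.5 CPM. The DBZ libraries differed from each other, with stem cell markers at 1411 and 204 CPM, enterocyte markers at 1709 and 10093 CPM and Paneth markers at 16464 and 4292 CPM. Proliferation markers summed to 784 and 905 CPM in enterocyte progenitors and 1034 and 718 CPM in DBZ secretory progenitors. Both were above the 629.5 to 679 CPM of Lgr5-GFP-Cre. The part of these markers was not tested. The 7 comparisons with Lgr5-GFP-Cre share its 3 libraries, so their counts are not independent of each other.

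Between the enterocyte and DBZ secretory progenitors no member was called. Of the 82, 0 passed in edgeR or DESeq2 and 0 had an unadjusted p below 0.05 (1.89% of all genes higher and 0.573% lower in DBZ secretory progenitors), with a median of 0.27. Rplp0 was at 1141 and 1060 CPM in DBZ secretory progenitors and 879 and 1195 CPM in enterocyte progenitors, which overlap. The groups were apart for 26 genes higher in DBZ secretory progenitors, against 19.5% of all genes. The first enterocyte progenitor library was the lowest of the 4 for 81 of the 82, which was not counted over all genes. The median ran from 0.06 to 0.64 as single libraries were left out.

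**Figure D2:**
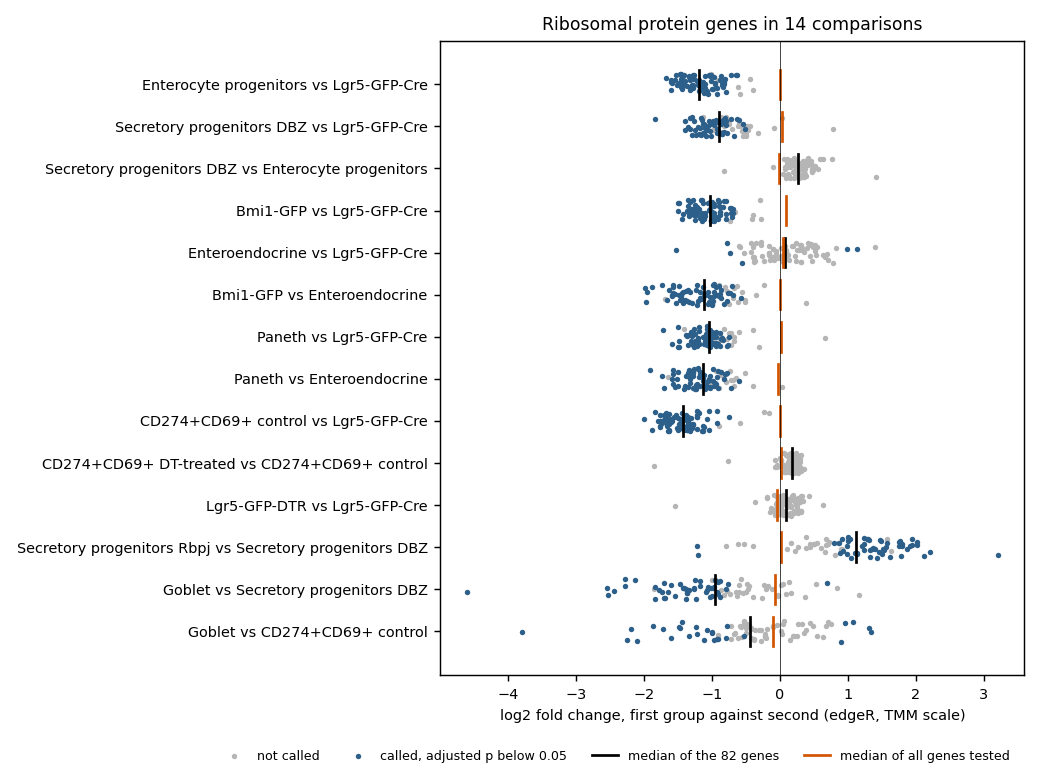
log2 fold change of each of the 82 ribosomal protein genes (points; x axis, first group minus second, edgeR with TMM) in 14 comparisons (y axis); blue points are called, black lines mark the median of the 82 and orange lines that of all genes tested. Most of the 82 lie left of 0 in comparisons with Lgr5-GFP-Cre, with medians of -0.89 to -1.43, except for enteroendocrine cells (0.08) and Lgr5-GFP-DTR (0.09), and right of 0 only in Rbpj against DBZ (1.12) by more than 0.27.

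The irradiated Bmi1-GFP library had the lowest levels of the set. With 1 irradiated library there is no replicate check and no test, and values are set against the range of the 3 untreated Bmi1-GFP libraries. Of the 82 members, 79 were below that range, 1 was within it and 2 were above (47.9% of all genes were below and 34.3% above). By more than 1 on the log2 scale, 47 were below, against 22.9% of all genes. The median log2 difference was -1.27, a 2.41-fold lower level, against -0.25 over all genes. For 60 of the 76 core genes the irradiated library was the lowest of all 25, a count that was not taken over all genes. Rpl3 was at 132 CPM after irradiation and 677, 747 and 705 CPM in untreated libraries, the largest difference, at -2.43 on the log2 scale. Rpsa was at 146 against 647, 615 and 592 CPM, and Rps6 at 175 against 472, 559 and 533 CPM. Rpl38 (named after its values were seen), a small protein known for its part in translation of Hox messages, was just below the range, at 111 against 119, 143 and 144 CPM.

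The 2 genes above the range were paralogs. Rps27l, a paralog of Rps27 that p53 is known to induce, was at 454 CPM after irradiation and 213, 240.3 and 277 CPM in untreated libraries, a log2 difference of 0.91. Among 10000 ribosomal protein counts it took 462 after irradiation and 96.5, 94.6 and 113 without it, where the range over the other 24 libraries was 20.1 to 142. Rps4l was at 101 CPM against 28.4, 27.2 and 44.7 CPM, a log2 difference of 1.62 and the 1 member higher by more than 1 (11% of all genes). The other 3 paralogs were below the range: Rpl22l1 at 49.7 against 58.3, 65.0 and 63.3 CPM, Rpl36al at 149 against 190.2, 221 and 236 CPM, and Rpl7l1 at 80.7 against 97.6, 121 and 103 CPM. Of the 22 growth control genes (Myc, mTOR and p53 genes) 9 were below the range, 10 above and 3 within it, with a median log2 difference of 0.14. Of the biogenesis genes 57 of 59 were below the range, with a median log2 difference of -1.17, and Fbl, the methyltransferase of ribosomal RNA, was at 25.1 CPM against 116 to 133 (likewise picked). Of the mitochondrial ribosomal protein genes 55 of 77 were below, with a median of -0.37, and translation factor genes had a median of -0.50. The irradiated library also held enterocyte markers at 51905 CPM against 3487 to 8767, stem cell markers at 25.7 against 774 to 1310 and proliferation markers at 112 against 446 to 525. Their part in the difference was not tested.

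**Figure D3:**
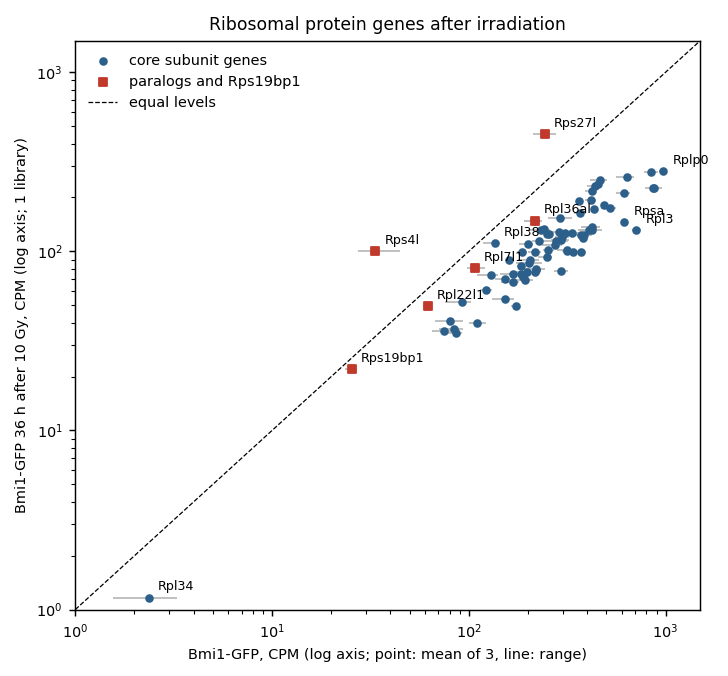
CPM of ribosomal protein genes in the irradiated Bmi1-GFP library (y axis, log) against the mean of the 3 untreated Bmi1-GFP libraries (x axis, log; grey lines give their range); Rpl30 and Rps27, below 1 CPM, are not drawn. Nearly all points lie under the line of equal levels, while the paralogs Rps27l (454 CPM) and Rps4l (101 CPM) lie above it.

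Across the cell types, the paralog Rpl7l1 was highest in the stem cells, at 299, 193 and 221 CPM in Lgr5-GFP-Cre and 227 and 207 CPM in Lgr5-GFP-DTR. It was at 146 and 137 CPM in CD274+CD69+ controls, 97.6, 121 and 103 CPM in Bmi1-GFP and only 83.7 and 81.1 CPM in enteroendocrine, 92.4 and 75.9 CPM in Paneth and 50.4 and 52.3 CPM in Goblet libraries. The 3 mature types were below every other replicated library for this gene, though the highest Paneth library came close to the lowest Bmi1-GFP library. Rpl22l1, a paralog of Rpl22 that is known to replace it when Rpl22 is lost, was at 228 and 145 CPM in enteroendocrine cells and 9.22 and 15.5 CPM in Goblet cells, with 229, 43.9 and 110.3 CPM in Lgr5-GFP-Cre, a wide spread that takes in the enteroendocrine libraries. Rps27l was lowest in Goblet cells, at 60.8 and 70.8 CPM, and among the highest in enteroendocrine cells, at 636 and 432 CPM. Rpl36al was at 574 and 404 CPM in enteroendocrine cells, 445 and 437 CPM in Lgr5-GFP-DTR and 89.6 and 86.8 CPM in Goblet cells. Rps4l was at 136, 63.7 and 84.5 CPM in Lgr5-GFP-Cre and 10.0 and 9.35 CPM in Goblet cells. Of the replicated groups, Goblet cells had the lowest mean for all 5, though for Rps4l the DT-treated CD274+CD69+ libraries, at 5.89 and 17.3 CPM, overlapped them. The Rbpj libraries, nearest to Goblet in profile, also had low shares of most paralogs. Relative to the set, Rbpj against DBZ crypts gave -2.33 for Rps27l, -2.31 for Rps4l, -1.63 for Rpl7l1 and -1.50 for Rpl36al on the log2 scale, all called. Rpl22l1, at -0.66, was not called. The part of the library profile in the low Goblet values was not tested.

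**Figure D4:**
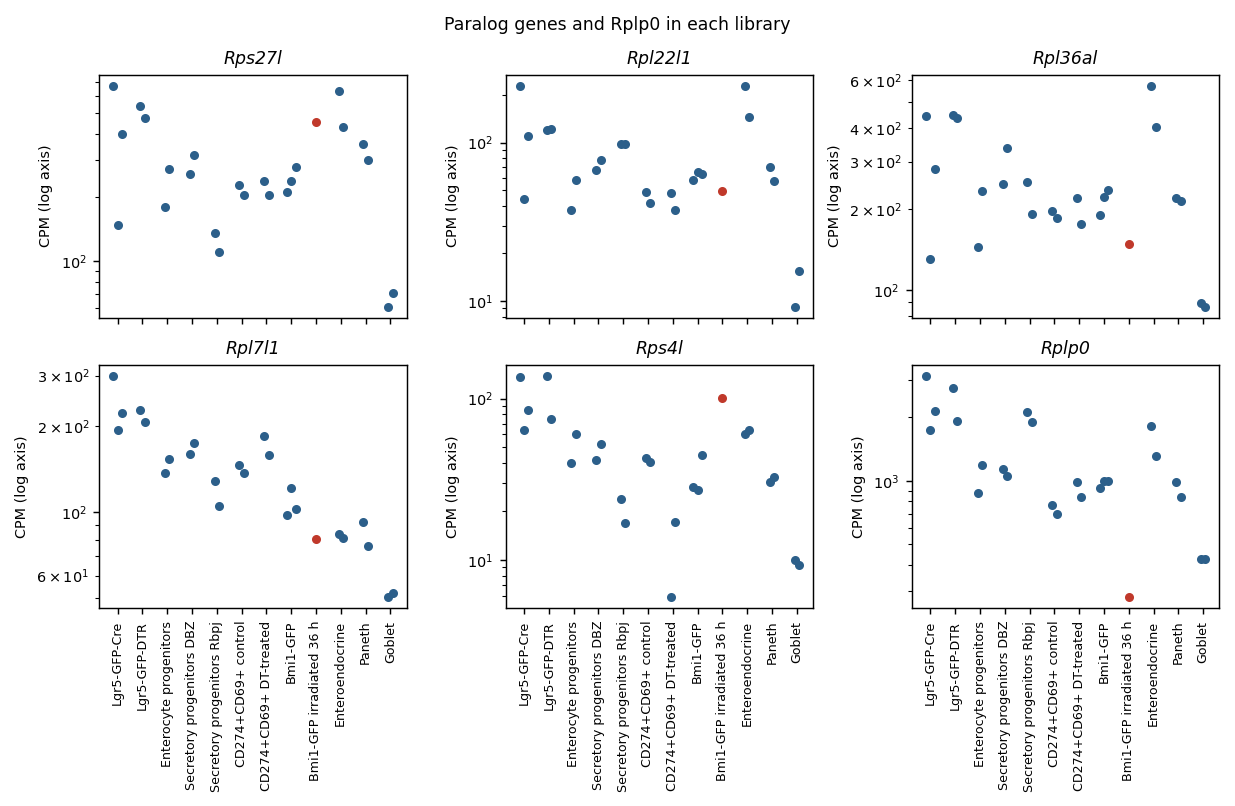
CPM (y axes, log) of 5 paralogs and of the core gene Rplp0 in each library, by group (x axes); red marks the irradiated Bmi1-GFP library. That library is lowest for Rplp0 (281 CPM) but above the untreated Bmi1-GFP libraries for Rps27l (454) and Rps4l (101), and Rpl7l1 is low in enteroendocrine, Paneth and Goblet cells.

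Within the set, members differed in how steady a share they kept. The SD over 24 libraries of a gene's log2 share of the ribosomal protein counts had a median of 0.29 over the 82 genes, and 35 had an SD under 0.25. Rpl24 (SD 0.11), Rps7 (0.13), Rps3a1 (0.13) and Rpl9 (0.14) were among the steadiest. Rpl24, at the bridge between the subunits, took between 62.4 and 90.9 of every 10000 ribosomal protein counts in these libraries. The least steady were Rps4l (0.92), Rpl34 (0.88), Rpl30 (0.84), Rps12 (0.77) and Rps27l (0.75), of which Rpl34 and Rpl30 had few counts. Without the Goblet and Rbpj libraries, a choice made after seeing the data, the median fell to 0.18 and 62 genes were under 0.25. Rpl13 then went from 0.61 to 0.14, and Rps19 from 0.58 to 0.16 (both picked after the values were seen). Of the least steady genes, Rps12 went from 0.77 to 0.40, Rps27l from 0.75 to 0.31 and Rpl34 from 0.88 to 0.44. Rps4l was then at 0.72 and Rpl30 at 0.85.

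Rbpj secretory progenitors had higher levels than DBZ secretory progenitors, but kit, genotype and treatment (tamoxifen or DBZ) cannot be told apart here. Calls numbered 52 higher and 2 lower of the 82 (12.9% and 11.9% of all genes), with a median of 1.12. Rps12 was at 1445 and 1181 CPM in Rbpj and 125 and 159 CPM in DBZ crypts, the largest rise, with a log2 fold change of 3.21 (SE 0.42, adjusted p = 2.61e-05 in edgeR). Rps4x was at 1455 and 1442 against 376 and 378 CPM, with a log2 fold change of 1.94 (SE 0.30, adjusted p = 0.000131 in edgeR). The 2 lower were paralogs, Rps27l and Rps4l. Rps27l was at 136 and 110.2 against 257 and 318 CPM, with a log2 fold change of -1.22 (SE 0.42, adjusted p = 0.0387 in edgeR). For 74 genes both Rbpj libraries were above both DBZ ones, and for 5 below (32.1% and 30.1% of all genes). Relative to the set, 15 genes rose and 15 fell (1.81% and 40.3% of all genes). Rps15a rose by 1.10 on the log2 scale (SE 0.29, adjusted p = 0.00497 in edgeR). The paralog Rpl36al fell, with a value of -1.50 on the log2 scale (SE 0.24, adjusted p = 9.94e-05 in edgeR). Of the 44 translation factor genes, 16 were higher and 11 lower, with a median of 0.21. The 2 higher ones of lowest adjusted p were elongation factors: Eef1a1 had a log2 fold change of 1.94 (SE 0.19, adjusted p = 1.43e-06 in edgeR), and Eef2 had a log2 fold change of 2.10 (SE 0.21, adjusted p = 1.41e-06 in edgeR). Of the mitochondrial ribosomal protein genes, 1 of 77 was higher and 42 lower. Proliferation markers summed to 1598 and 1287 CPM in Rbpj and 1034 and 718 CPM in DBZ crypts, and their part was not tested.

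Goblet cells, which secrete mucus, had the lowest group means of the replicated groups for 50 of the 76 core genes (not counted over all genes). Their libraries are labelled SMART-Seq v4 but lay nearest in profile to the Rbpj libraries labelled TruSeq, and the part of the kit in the Goblet results was not tested. Against DBZ secretory progenitors, 47 of the 82 were called lower and 1 higher (30.1% and 24.9% of all genes), with a median of -0.96 (37 lower and 3 higher with DESeq2's size factors, which raised the median of all genes by 0.26). Rpl13 was at 139 and 158 CPM in Goblet and 876 and 833 CPM in DBZ libraries, with a log2 fold change of -2.53 (SE 0.31, adjusted p = 1.85e-06 in edgeR). Rps19 was at 79.2 and 79.1 against 443 and 420.4 CPM, with a log2 fold change of -2.45 (SE 0.33, adjusted p = 4.31e-06 in edgeR). Both groups were far apart for both genes, while Rps6, at 372 and 304 against 602 and 639.9 CPM, had a log2 fold change of -0.88 (SE 0.27, adjusted p = 0.00917 in edgeR). The 1 higher gene was Rpl7a, at 460.2 and 409.6 against 257 and 283 CPM, with a log2 fold change of 0.69 (SE 0.24, adjusted p = 0.0229 in edgeR). All 5 paralogs were called lower, Rpl22l1 at 9.22 and 15.5 against 67.2 and 77.5 CPM with a log2 fold change of -2.55 (SE 0.48, adjusted p = 0.000197 in edgeR). Relative to the set, 17 rose and 18 fell (35.7% and 12.7% of all genes). The mitochondrial ribosomal protein genes and biogenesis genes were called lower in 72 of 77 and 57 of 59 cases, with 0 higher in either and medians of -2.06 and -2.23. Enterocyte markers summed to 34192 and 37100 CPM in Goblet libraries, against 1709 and 10093 in DBZ secretory progenitors, and proliferation markers to 182 and 158 against 1034 and 718. Their part was not tested. Goblet cells were sorted after Dispase from wild-type mice and the DBZ crypts were unsorted and Atoh1 F/F, so time after the drug, sorting, dissociation and genotype cannot be told apart.

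Against CD274+CD69+ control cells the Goblet result was mixed, with 23 of the 82 lower and 5 higher (29.5% and 21.8% of all genes) and a median of -0.44. With DESeq2's size factors (a shift of all genes by 0.25 here), the split was 14 lower and 9 higher. Goblet mice had been given DBZ and the control mice were untreated, so drug and cell type cannot be told apart here. Enterocyte markers summed to 34192 and 37100 CPM in Goblet libraries against 6388 and 6375 CPM in controls. Proliferation markers summed to 182 and 158 against 506 and 476 CPM. The part of these markers was not tested. Rps12 was at 282 and 228 CPM in Goblet cells and 103 and 97.5 CPM in CD274+CD69+ controls, with a log2 fold change of 1.34 (SE 0.40, adjusted p = 0.00837 in edgeR). Rplp1 was at 344 and 319.8 against 183 and 158 CPM, with a log2 fold change of 0.96 (SE 0.37, adjusted p = 0.0381 in edgeR), while its partner Rplp2, at 84.7 and 82.4 against 174 and 154 CPM, had a log2 fold change of -0.97 (SE 0.38, adjusted p = 0.0377 in edgeR). Large subunit genes also moved in opposite directions. Rpl7a had a log2 fold change of 1.31 (SE 0.25, adjusted p = 0.000234 in edgeR). Rpl13 had a log2 fold change of -2.25 (SE 0.31, adjusted p = 8.66e-06 in edgeR). Relative to the set 17 rose and 20 fell (20.2% and 16.1% of all genes). For 20 genes the Goblet libraries were above both controls and for 54 below (39.1% and 45.9% of all genes). The count was 14 without the first control library or the first Goblet library, 16 without the second Goblet library, 15 without all libraries labelled TruSeq, and 64 (20 higher, 44 lower) with only the compared groups in the fit.

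**Figure D5:**
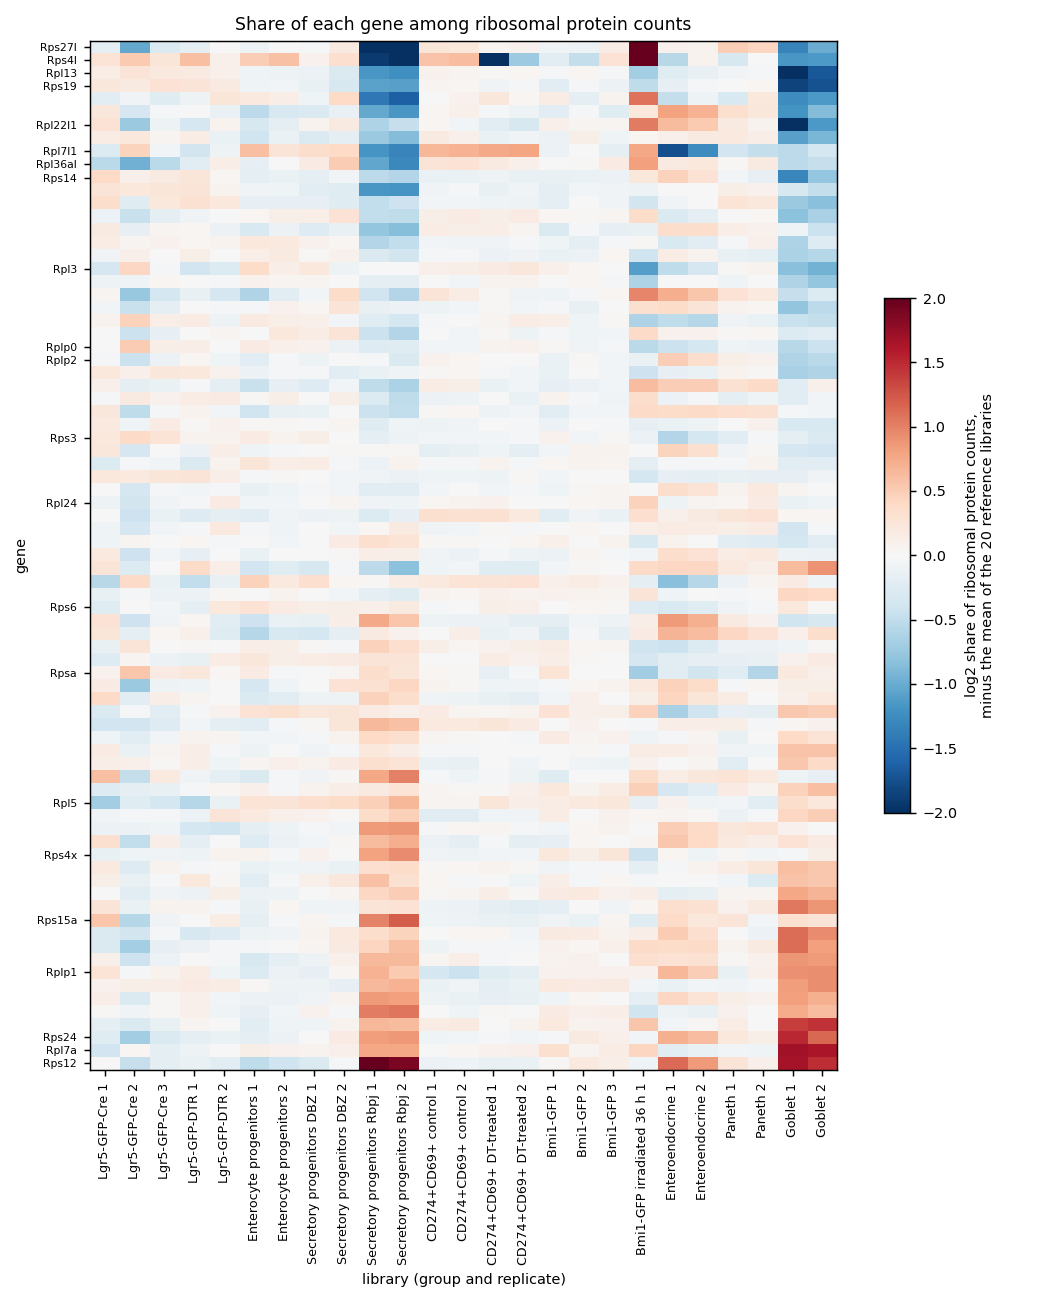
log2 share of each gene among the ribosomal protein counts of a library, minus the mean over the 20 replicated libraries other than Goblet and Rbpj (colour, capped at -2 and 2), for the 79 genes with a mean of at least 5 CPM (rows, of which 22 are labelled) in 25 libraries (columns). The Goblet and Rbpj columns stand out, with Rps12 high and Rpl13, Rps19 and Rps27l low in both, as does the irradiated column with Rps27l and Rps4l high.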

How the data were processed

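RNA-seq was analysed in 25 libraries (75 bp single-end reads, per the labels' protocols), and the other 24 samples of the series were not used here. The authors deposited whole-number read counts per gene, not normalized. The submitters' processing notes name Bowtie2, TopHat2 2.0.6, DESeq2 and build mm10, while the counting tool, annotation and strand setting are not named there. Totals of 11179085 to 27371108 counts set the precision, and intervals cover spread between libraries only.

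Members and gene lists were chosen with earlier results of these data known. Genes passed edgeR's filterByExpr (minimum 10 counts, 15 in total), leaving 14837 of 24062. One edgeR 4.0.16 quasi-likelihood fit (R 4.3.3, TMM, no covariates) held 24 libraries in 11 groups, with Benjamini-Hochberg adjustment over all genes tested and calls at an adjusted p below 0.05. A second fit used the summed counts of the 82 genes as library size. The irradiated library had no replicate and entered no test. Scripts were tested on simulated data. Alternatives were DESeq2 1.42.0 and its size factors, other filters, a replicate block, the compared groups alone, and left-out libraries.

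Genes were named by rule: among members called with at least 20 CPM, the 3 of lowest adjusted p and the 3 of largest change in each direction, the paralogs with their parent genes, the stalk genes, Rpl5, Rpl11, Rps6 and Rpsa, the 2 called genes of lowest adjusted p per direction in each related list, and the 5 most and 5 least variable members. Exceptions are marked, and 1 gene named by the rule is not reported here. Related lists held 77 mitochondrial ribosomal protein, 44 translation factor, 59 ribosome biogenesis and 22 growth control genes. Promoter windows came from RefSeq GRCm38.p6, matched by symbol.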

Additional observations from a re-analysis of the deposited data

How the results depend on the processing

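The number of members called was recomputed for 14 comparisons. With only the compared groups in the fit, which leaves fewer libraries to estimate the spread, the counts were 30 for enterocyte progenitors, 14 for DBZ secretory progenitors, 1 for enteroendocrine and 17 for Paneth cells against Lgr5-GFP-Cre, 22 for Paneth against enteroendocrine cells, and 64 for Goblet against CD274+CD69+ control cells. The last was 15 without the TruSeq libraries. DT-treated against control gave 1 with DESeq2 and 1 without the count filter, against 0. As single libraries were left out, where a lone remaining library is assumed to vary like the other groups, the counts against Lgr5-GFP-Cre ran from 15 to 79 for enterocyte progenitors, 14 to 77 for DBZ secretory progenitors, 37 to 79 for Bmi1-GFP, 5 to 32 for enteroendocrine, 30 to 79 for Paneth, 61 to 79 for CD274+CD69+ control and 0 to 5 for Lgr5-GFP-DTR. They ran from 36 to 39 for Rbpj against DBZ, 6 to 68 for Bmi1-GFP against enteroendocrine, 2 to 65 for Paneth against enteroendocrine, 34 to 39 for Goblet against DBZ, 14 to 19 for Goblet against CD274+CD69+ control, 0 to 1 for DT-treated against control, and stayed at 0 for DBZ against enterocyte progenitors. The median of the 82 kept its sign under these removals except for enteroendocrine cells (-0.23 to 0.50) and Lgr5-GFP-DTR (-0.21 to 0.52), both against Lgr5-GFP-Cre, and the cause was not tested. Without the paralogs and Rps19bp1 the summed share was 2.82 and 2.86% in DBZ secretory progenitors and 0.639% after irradiation. The correlations of the deviations of same-numbered libraries ran from -0.19 (enterocyte progenitors with Lgr5-GFP-Cre) to 0.324 (both pairs of Paneth with enteroendocrine cells). They were -0.0714, 0.0072 and 0.0515 for Bmi1-GFP with Lgr5-GFP-Cre, the comparison with 3 pairs. The labels name no shared mouse, litter or day, so the numbers were not taken as pairs. With a replicate block the counts against Lgr5-GFP-Cre were 69 for enterocyte progenitors, 40 for DBZ secretory progenitors, 73 for Bmi1-GFP, 6 for enteroendocrine, 55 for Paneth, 77 for CD274+CD69+ control and 0 for Lgr5-GFP-DTR. The block gave 0 for DBZ against enterocyte progenitors, 52 for Rbpj against DBZ, 63 for Bmi1-GFP and 61 for Paneth against enteroendocrine, 48 for Goblet against DBZ, 28 for Goblet against CD274+CD69+ control and 0 for DT-treated, so it moved no count by over 1.5 times. Without the Goblet and Rbpj libraries, an alternative chosen after seeing the data, the counts against Lgr5-GFP-Cre were 72 for enterocyte progenitors, 42 for DBZ secretory progenitors, 73 for Bmi1-GFP, 6 for enteroendocrine, 59 for Paneth and 76 for CD274+CD69+ control. Among fold changes of single named genes, 0 reversed: 2328 values kept their side of the threshold under other settings, 108 lost and 32 gained a call, and 1231, 221 and 38 did so as libraries were left out. Depth limits Rpl30, Rpl34 and Rps27, and their calls rest on few counts: Rps27 was at 0.22 CPM in DBZ secretory progenitors against 0.81 CPM in Lgr5-GFP-Cre (adjusted p = 0.0469 in edgeR), and Rpl34 at 0.15 CPM in Goblet against 2.20 CPM in CD274+CD69+ control cells (adjusted p = 7.29e-05 in edgeR).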
